A study of Mus musculus with 4 samples.

Results

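The simple epithelial keratins Krt7, Krt8, Krt18 and Krt19 and the desmosome genes Dsp, Jup, Pkp2, Dsg2 and Dsc2 were examined in mouse embryonic stem (ES) cells without SOCS3, a feedback inhibitor of JAK kinases. They were taken as every probe set of the array whose only gene symbol is one of these 9, which gave 22 of 45101 probe sets, for 9 of the 18193 genes named on the array: 6 for the keratins and 16 for the desmosome genes. Krt7, Krt18, Krt19 and Jup have 1 probe set each, Dsc2 has 2, Krt8 and Dsp have 3, Pkp2 has 4 and Dsg2 has 6. Total RNA had been hybridised to 4 arrays, 2 labelled wildtype and 2 labelled SOCS3 null. The labels give the genotype and the replicate number, and no strain, parental line, clone, passage, allele, medium or treatment. Whether replicate arrays came from separate cultures is not stated. The p-values therefore set the difference between genotypes only against the spread between arrays of a genotype, and that spread may be technical.

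Keratins are intermediate filament proteins that assemble as obligate pairs of a type I and a type II chain. Krt8 and Krt7 are type II chains, Krt18 and Krt19 type I chains, and Krt8 with Krt18 forms the first keratin filaments of the mouse embryo, in trophectoderm and in extraembryonic endoderm. Desmosomes are cell junctions that hold these filaments at the membrane. Their cadherins, here Dsg2 and Dsc2, bind those of the neighbouring cell, the armadillo proteins Jup (plakoglobin) and Pkp2 (plakophilin) sit beneath them, and Dsp (desmoplakin) ties them to the filaments.

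Krt8 and Krt18 lie near each other on chromosome 15, where Krt7 also lies. The 3 promoters are shown because these keratins had their highest intensities on the same array. That is not particular to them, since the brightest probe sets of Krt19, Dsp, Dsg2 and Dsc2 also read highest on that array. The sequences are RefSeq's, of build GRCm38.p6, and each runs 5′ to 3′ on the strand of its gene, from 250 bases before the gene start to 50 bases from it. Capitals mark matches, on either strand, to the motifs searched. The SP1 motif was searched as GGGCGG. For GATA factors the letters were AGATAA, with TGATAA as a second form. AP-1 was searched as TGACTCA. The ETS letters were CCGGAAGT. For STAT factors TTCNNNGAA was used.
Krt8 promoter, chr15:102004293-102004592, minus strand: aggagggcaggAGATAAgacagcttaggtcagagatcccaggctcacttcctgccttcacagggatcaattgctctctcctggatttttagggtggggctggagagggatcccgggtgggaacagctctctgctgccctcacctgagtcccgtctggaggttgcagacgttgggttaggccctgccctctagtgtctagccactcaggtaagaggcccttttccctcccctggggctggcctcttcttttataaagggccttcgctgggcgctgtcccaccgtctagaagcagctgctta
Krt18 promoter, chr15:102027966-102028265, plus strand: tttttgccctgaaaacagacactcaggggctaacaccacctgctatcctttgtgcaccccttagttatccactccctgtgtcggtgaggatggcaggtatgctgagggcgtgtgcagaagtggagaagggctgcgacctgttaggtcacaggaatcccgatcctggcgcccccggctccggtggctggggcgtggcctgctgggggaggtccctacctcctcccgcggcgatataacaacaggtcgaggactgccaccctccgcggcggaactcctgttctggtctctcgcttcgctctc
Krt7 promoter, chr15:101412153-101412452, plus strand: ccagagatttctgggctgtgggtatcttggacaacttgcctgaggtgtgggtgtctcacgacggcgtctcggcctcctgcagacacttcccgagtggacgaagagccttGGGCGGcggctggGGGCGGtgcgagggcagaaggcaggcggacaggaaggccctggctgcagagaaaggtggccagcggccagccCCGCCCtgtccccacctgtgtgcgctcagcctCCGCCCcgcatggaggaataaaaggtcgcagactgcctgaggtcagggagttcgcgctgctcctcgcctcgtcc
The Krt8 window holds 1 GATA match, which begins 239 bases before the gene start. A GATA match stands in 18.6% of the 32851 promoters of the same table. The Krt18 window holds none of these letters. The Krt7 window holds 4 SP1 matches, 2 on each strand, as compared with at least 1 match in 35.7% of promoters. The promoters of Dsp and Jup, on chromosomes 13 and 11, hold 4 and 2 SP1 matches. AP-1, ETS and STAT letters, found in 5.2%, 3.89% and 8.3% of promoters, are in none of these 5 windows. The table gave promoters for 5 of the 9 genes; Krt19, Pkp2, Dsg2 and Dsc2 are the others. The motif searches overlap in no base here, and a match is a description of the letters.

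Intensities are the authors' processed values on a linear scale, with array medians close to 16, so a value near 16 is dim. Changes are SOCS3-null minus wildtype means of log2(intensity + 16), a scale that understates the change of dim probe sets. They come with the standard error (SE) and the adjusted p of limma over the 27022 probe sets bright enough to be tested. A probe set was called at an adjusted p under 0.05, two-sided. As a check of the labels, the brightest Socs3 probe set fell from 3024 and 1884 in wildtype to 19.3 and 12.9 in the nulls. The ES cell marker Pou5f1 had mean intensities of 11100 ± 814 (wildtype) and 11045 ± 737 (SOCS3 null; SD, n = 2).

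Of the 21 member probe sets tested, 10 were called higher in SOCS3-null cells, beside 8.55% of all probe sets tested, and 1 was called lower, beside 7.3%. The other 10 were not called, and 1 probe set of Pkp2 was too dim to be tested. The median change was 0.99 over the tested members and -0.02 over all probe sets tested. All 6 keratin probe sets were higher on both SOCS3-null arrays than on both wildtype arrays, with a median change of 2.92, and 5 of them were called. Of the 15 desmosome probe sets tested, 5 were called higher and 1 lower, with a median of 0.51. The groups did not overlap in 17 tested members that were higher and 3 that were lower, beside 27.2% and 34.8% of all probe sets tested. By gene, with the brightest probe set standing for each, Krt8, Krt18, Krt19 and Dsg2 were called higher, beside 13.1% of 12732 genes. Pkp2 was called lower, beside 9.55%, and Krt7, Dsp, Jup and Dsc2 were not called. On any 3 of the 4 arrays limma called 0 members, while 7 to 15 of the 21 had an unadjusted p under 0.05. Without the filter on dim probe sets it called 2, 1 of Dsg2 and 1 of Dsp. An exact permutation test of 2 against 2 arrays cannot give a p under 0.333.

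**Figure D1:**
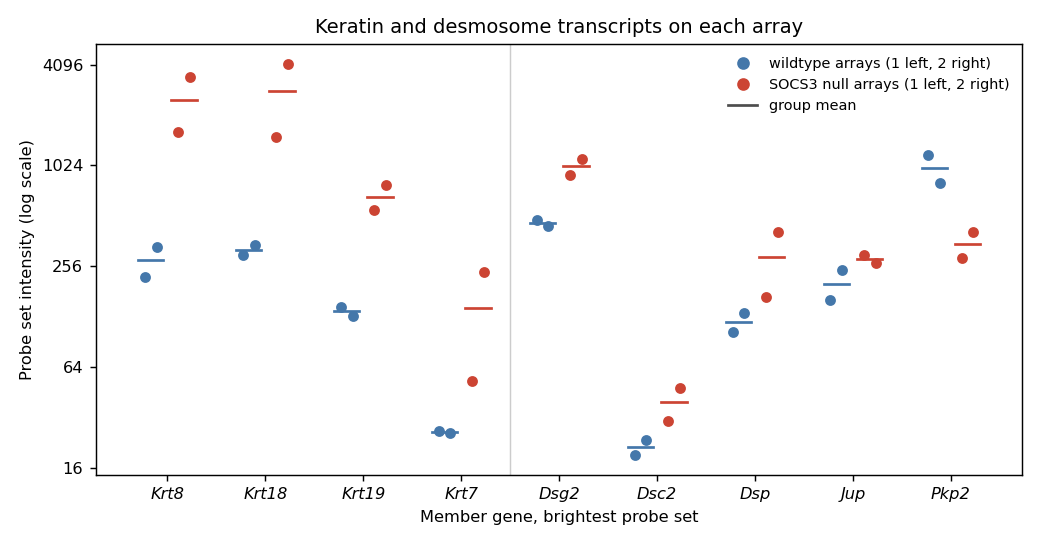
Intensity (log axis) of the brightest probe set of each member gene, with 1 point for each array, wildtype in blue and SOCS3 null in red, and a line at each group's mean. Krt8 and Krt18 rise from at most 342 in wildtype to at least 1520 in SOCS3-null cells, Pkp2 lies lower in SOCS3-null cells, and the SOCS3-null points of Krt7, Krt18 and Dsp lie far apart.

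Krt8 rose in SOCS3-null cells on all 3 of its probe sets. On the brightest, 1423691_x_at, the wildtype intensities were 221 and 332, against SOCS3-null intensities of 1628 and 3430, so the groups lay far apart and the second SOCS3-null array was the highest. This is 277 ± 78.5 against 2529 ± 1274 (SD, n = 2), a 9.14-fold difference in mean intensity and a log2 change of 3.05 (SE 0.45, limma adjusted p = 0.0314). The probe set 1420647_a_at read 112 and 147 against 922 and 1927 and changed by 3.22 (SE 0.41, limma adjusted p = 0.0255). The third, 1435989_x_at, read 105 and 129 against 710 and 1388 and changed by 2.93 (SE 0.37, limma adjusted p = 0.0247). The suffix _x_at marks probe sets with probes that may also match other transcripts. The _a_at probe set, whose suffix refers to transcripts of the same gene, gave a change in the same range. The brightest probe sets of Dsg2, Pkp2, Dsp and Jup end in _s_at, and matches of their probes to other transcripts were not examined. With 1 array left out, the change of the brightest probe set lay between 2.52 and 3.58. Without the filter on dim probe sets the adjusted p of the 3 were 0.112, 0.0935 and 0.0913.

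Krt18, the type I partner of Krt8, rose as well. Its probe set read 299 and 342 in wildtype, against 1520 and 4151 in SOCS3-null cells. The SOCS3-null arrays were thus both above wildtype and unlike each other. The means were 321 ± 30.5 and 2836 ± 1860 (SD, n = 2), 8.84-fold apart, with a log2 change of 2.91 (SE 0.54, limma adjusted p = 0.0466). The change was 2.19 without SOCS3 null replicate 2 and 3.63 without SOCS3 null replicate 1. Krt18 lost its call if dim probe sets were kept (limma adjusted p = 0.153) and at the larger pseudocount of 64.

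Krt19, the type I keratin without a tail domain, read 145 and 130 in wildtype, against 552 and 776 in SOCS3-null cells. Both SOCS3-null arrays were well above wildtype and closer to each other than for Krt8 or Krt18. The change was 2.13 (SE 0.20, limma adjusted p = 0.0152), from 137 ± 10.8 to 664 ± 159 (SD, n = 2). Krt19 had the smallest SE of the keratins, and its adjusted p without the filter was 0.0594.

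Krt7, the type II keratin of ducts and other simple epithelia, did not pass. It was dim on both wildtype arrays, at 26.4 and 25.7, and read 52.6 and 234 on the SOCS3-null arrays. The second SOCS3-null array carried most of the difference. Its log2 difference was 1.64 (SE 0.69, limma adjusted p = 0.204), or 0.71 without SOCS3 null replicate 2 and 2.57 without SOCS3 null replicate 1. Its differences ran from 1.05 to 2.05 over the settings that keep all 4 arrays, and none of them called it.

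**Figure D2:**
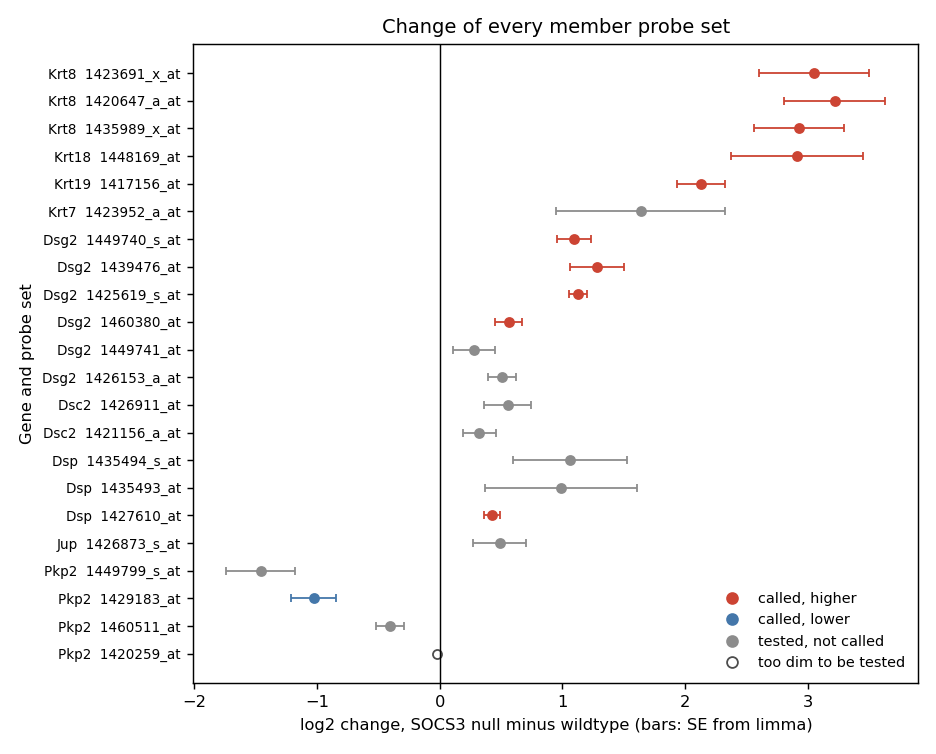
The log2 change (SOCS3 null minus wildtype, horizontal axis) of each of the 22 member probe sets, with the SE from limma as a bar; red and blue are probe sets called higher and lower, grey ones were not called and the open circle was too dim to be tested. The keratins lie between 1.64 and 3.22, the Dsg2 probe sets between 0.28 and 1.28, and the Pkp2 probe sets at or below -0.02.

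Among the desmosomal cadherins Dsg2, desmoglein of simple epithelia, rose on 4 of its 6 probe sets. The brightest, 1449740_s_at, read 480 and 442 in wildtype, against 898 and 1119 in SOCS3-null cells, with no overlap and a modest spread. It changed by 1.10 (SE 0.14, limma adjusted p = 0.0251), from 461 ± 26.8 to 1009 ± 156 (SD, n = 2). The probe set 1439476_at read 382 and 404 against 804 and 1192 and changed by 1.28 (limma adjusted p = 0.0406). The most even of the set was 1425619_s_at, at 117 and 121 against 273 and 286, with a change of 1.13 (SE 0.07, limma adjusted p = 0.0109). The mean intensities of these brighter probe sets were 2.19, 2.54 and 2.34 times those of wildtype. The fourth, 1460380_at, read 78.1 and 87.4 against 139 and 121 and changed by 0.56 (limma adjusted p = 0.0498), close to the threshold. The 2 dimmest did not pass: 1426153_a_at differed by 0.51 (limma adjusted p = 0.065), and 1449741_at by 0.28 (limma adjusted p = 0.354). On the last of these the groups met, at 20.9 and 32.8 in wildtype against 32.8 and 38.4. Of 10 settings that used all 4 arrays, 1425619_s_at was called in 10, 1439476_at in 7 and 1460380_at in 3. The brightest, 1449740_s_at, was called in 10 of 12, and not without the filter (limma adjusted p = 0.08) or with the replicate block (limma adjusted p = 0.0564).

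Dsc2, the desmocollin that pairs with Dsg2 in simple epithelia, was dim. Its brighter probe set, 1426911_at, read 19.0 and 23.4 in wildtype, against 30.6 and 48.0 in SOCS3-null cells, and the other, 1421156_a_at, read 13.1 and 7.46 against 17.1 and 16.3. Both SOCS3-null arrays lay above both wildtype arrays on each probe set, but the differences of 0.56 and 0.32 did not pass (limma adjusted p = 0.146 and 0.199).

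Of the armadillo proteins, Pkp2 went the other way. Its brightest probe set, 1449799_s_at, read 1178 and 797 in wildtype, against 287 and 409 in SOCS3-null cells, so wildtype was the higher group without overlap. The log2 difference was -1.46 (SE 0.28). It just missed the threshold over probe sets (limma adjusted p = 0.05004) and passed it over genes (limma adjusted p = 0.0365). The second probe set, 1429183_at, read 292 and 230 against 104 and 136 and fell by 1.03 on the log2 scale (SE 0.19, limma adjusted p = 0.0453). A dimmer one, 1460511_at, read 21.2 and 17.8 against 8.84 and 12.8, a difference of -0.41 (limma adjusted p = 0.101). The last, 1420259_at, read 8.79 to 9.23 on all arrays and was not tested. Mean intensities on the 2 brighter probe sets were 0.352 and 0.460 of wildtype. With 1 array left out the difference of the brightest probe set lay between -1.74 and -1.18.

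Jup, an armadillo protein that desmosomes share with adherens junctions, read 160 and 242 in wildtype, against 299 and 268 in SOCS3-null cells. Both SOCS3-null arrays were above both wildtype arrays, which differed from each other by 0.55 on the log2 scale. The log2 difference between the groups, 0.49 (SE 0.22), did not pass (limma adjusted p = 0.227).

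Dsp, the plakin of the desmosomal plaque, had probe sets that disagreed. The brightest, 1435494_s_at, read 104 and 134 in wildtype, against 168 and 410 in SOCS3-null cells, and 1435493_at read 54.3 and 55.3 against 62.7 and 236. The first SOCS3-null array lay close to wildtype on 1435493_at. On 1435494_s_at it lay 0.45 above the wildtype mean on the log2 scale, beside a gap of 0.33 between the wildtype arrays. On both probe sets the second SOCS3-null array lay far above wildtype. Their differences of 1.06 (SE 0.47) and 0.99 (SE 0.62) did not pass (limma adjusted p = 0.22 and 0.361). For 1435493_at the difference was 0.15 without SOCS3 null replicate 2 and 1.83 without SOCS3 null replicate 1; for 1435494_s_at it was 0.45 and 1.67. The third probe set, 1427610_at, was dim and even, at 17.2 and 17.9 against 29.1 and 28.9, and was called with a change of 0.43 (SE 0.07, limma adjusted p = 0.0362). Over the alternatives it ran from 0.19 to 0.70, and it lay under the filter at the 60th percentile.

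In each of the 6 keratin probe sets the SOCS3-null arrays differed from each other more than the wildtype arrays did. The second SOCS3-null array exceeded the first in 18 of the 22 probe sets and in all 6 of the keratins, with a median log2 gap of 1.06 for the keratins and 0.21 for the desmosome genes. Between the wildtype arrays these median gaps were 0.22 and 0.03. Across all probe sets tested the second SOCS3-null array was the higher in 48.79%, the median gap was 0.00, and 0.555% had a gap over 1. Several of the 22 probe sets belong to the same gene, so they are not separate observations. Among the 21 members tested, 6 had a gap over 1, and they belonged to Krt7 (1.87), Krt18 (1.44), Krt8 (1.07 and 1.05) and Dsp (1.68 and 1.22). Ordered by this gap, Krt7 was number 26, the Dsp probe set 1435493_at number 40 and Krt18 number 57 of the 27022. The gap between the wildtype arrays was over 1 for 0 members, and its largest value was 0.55. This pattern was noticed after the values were seen and is given as a description, with no test.

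**Figure D3:**
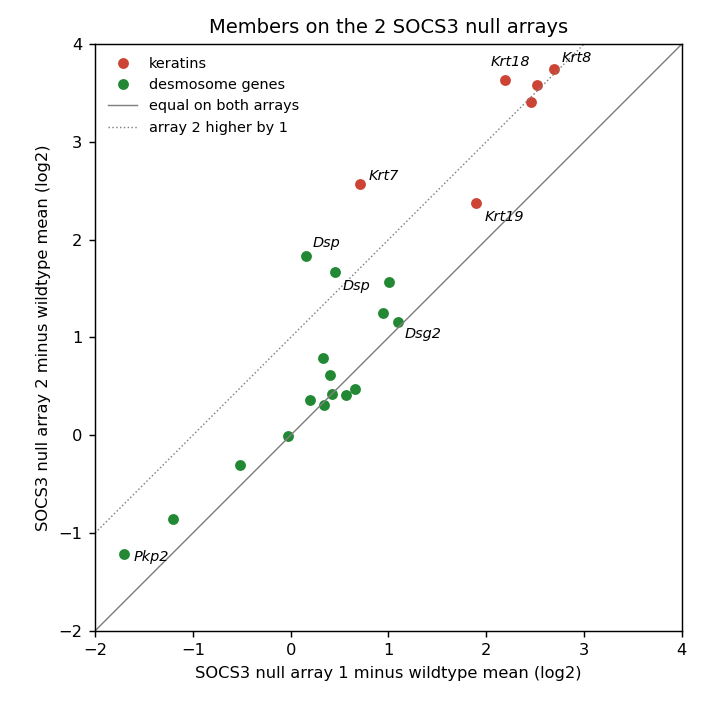
Each member probe set by its log2 difference from the wildtype mean on SOCS3 null array 1 (horizontal) and array 2 (vertical); points on the solid line are equal on both arrays, and those above the dotted line are higher on array 2 by over 1. Krt7, Krt18, 2 Krt8 probe sets and 2 Dsp probe sets lie above the dotted line, while Pkp2 is below 0 on both arrays.

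Of the markers of other cells that make these keratins, those of primitive endoderm moved with the groups and those of trophoblast did so in part. All 9 primitive endoderm markers rose, and their summed intensity, over the brightest probe set of each, was 724 and 766 in wildtype, against 29624 and 29949 in SOCS3-null cells. Most of the SOCS3-null sums came from Col4a1, at 11770.5 and 12552.1, and Lama1, at 12157.3 and 11685.5. Lama1 was chosen after its values were seen. The near-equal sums thus mostly reflect these genes. Gata6, Pdgfra and Col4a1 rose by 5.25, 5.23 and 5.22, and Sox17, Dab2 and Gata4 by 5.02, 4.68 and 4.63. Between the SOCS3-null arrays the markers differed in both directions, with 6 of 9 higher on the second: Gata4 read 536 and 743, Dab2 1366 and 1648, and Gata6 1356 and 943. Of 8 trophoblast markers 6 were tested and 2 rose, Plet1 by 2.61 and Eomes by 0.94 (limma adjusted p = 0.0216 and 0.0456 over genes). Over probe sets Eomes missed the threshold (limma adjusted p = 0.06). The other 4 tested, given to complete the list, were not called. Hand1 and Gata3 differed by 0.90 and 0.43, and Ascl2 and Tpbpa by -0.52 and -0.08. Cdx2, which defines trophectoderm, read 8.49 and 10.1 in wildtype, against 11.7 and 11.7 in SOCS3-null cells, below the array medians, and was not tested. The trophoblast sum was 197 and 179 in wildtype, against 523 and 929 in SOCS3-null cells, most of it from Plet1 at 346 and 707. All 8 markers were higher on the second SOCS3-null array than on the first, Cdx2 by a log2 gap of only 2e-04. The part of endoderm and trophoblast cells in the keratin values was not tested, and in bulk RNA more cells of a type and more RNA per cell cannot be told apart.

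Of 7 stratified epithelium markers 5 were tested and Sfn rose by 1.39. Krt5 and Krt14, the keratin pair of basal keratinocytes, were dim. Krt5 read 25.1 and 36.7 against 24.9 and 25.2, a difference of -0.18 (limma adjusted p = 0.439 over genes). Krt14 read 15.2 and 14.4 against 30.6 and 86.3, a difference of 1.17 that did not pass (limma adjusted p = 0.128 over genes), and the second SOCS3-null array was again the higher. Of 6 cardiac muscle markers 3 were tested and Ttn fell by 1.04. Of 7 fibroblast and feeder markers limma called 0 of the 6 tested, with 0 at an unadjusted p under 0.05. Their sums were 1273 and 2123 in wildtype, against 2510 and 1530 in SOCS3-null cells. All 7 were lower on the second SOCS3-null array than on the first, Thy1 only slightly, at 130 and 128. On this pair of arrays the keratins ran the opposite way. Between the wildtype arrays the fibroblast sum and 4 of the 6 keratin probe sets were both higher on the second. Of 5 ES cell markers Sox2 fell by 1.01 and the other 4 were not called. Sox2 passed over genes (limma adjusted p = 0.0385) and missed the threshold over probe sets (limma adjusted p = 0.0515). The sums of the 5 were 31170 and 32639 in wildtype, against 22756 and 21012 in SOCS3-null cells. Zfp42, chosen after its values were seen, read 7657 and 7324 against 3502 and 1509, a difference of -1.70 (limma adjusted p = 0.0691 over genes). It was lower on the second SOCS3-null array, but 2 of the 5 ES cell markers were higher there. Sox2 read 2825 and 3940 on the SOCS3-null arrays, and Nanog, also chosen after its values were seen, 3646 and 4050. No marker of these lists was at an intensity of 0, but no probe set of any array was, as the array minima were 2.34 to 2.38. A reading above 0 thus does not show that a marker was detected.

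Few of the remaining keratins of the array were bright enough to be tested. Of 25 other keratins 9 were tested, 0 were called higher by limma, 1 lower and 8 not called, with 3 at an unadjusted p under 0.05 and a median of -0.01. The one that fell was Krt42, a type I keratin, from 450 ± 38.6 to 207 ± 13.4 (SD, n = 2), a change of -1.07 (limma adjusted p = 0.011 over genes). Of 12 other desmosome genes 9 were on the array under these symbols and 3 were tested. Pkp3, a plakophilin like Pkp2, rose by 1.46 from 80.7 ± 1.79 to 249 ± 3.25, and Perp, a membrane protein of desmosomes, by 0.95 from 311 ± 3.57 to 617 ± 33.3 (SD, n = 2). Their limma adjusted p over genes were 0.00542 and 0.00945. The third, Pkp4, differed by -0.46 (limma adjusted p = 0.0629 over genes); it falls outside the rule for named genes and was chosen after its value was seen. Within the plakophilins the changes thus ran both ways, with Pkp3 higher and Pkp2 lower.

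Of 8 plakins and keratin linkers, all tested, Plec was the one called. Plec encodes plectin, which links keratin filaments to other filaments and to the membrane. It went from 276 ± 37.1 to 883 ± 3.97 (SD, n = 2), a change of 1.63 (SE 0.12, limma adjusted p = 0.00769 over genes). The list's median was 0.13. Of 8 adherens junction genes 3 rose and 5 were not called, with a median of 0.29. Zyx (zyxin), the adhesion receptor Nectin2 and Ctnnd1 (p120 catenin) rose by 1.49, 1.29 and 0.78. Cdh1 (E-cadherin) was at 1493 ± 49.0 and 1353 ± 133 (SD, n = 2), a difference of -0.14 (limma adjusted p = 0.397 over genes). Ctnnb1 (beta-catenin), the close relative of Jup, differed by 0.00 (SE 0.08, limma adjusted p = 0.975 over genes). It read 10475.8 and 10409.2 in wildtype, against 10475.8 on both SOCS3-null arrays. Why these processed values are identical was not examined, so the difference of 0.00 may be less exact than it looks.

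Of 14 other intermediate filament genes 13 were tested, 2 rose, 1 fell and 10 were not called, with a median of 0.08. Lmna, which encodes the nuclear lamins A and C, rose by 2.44 from 228 ± 24.4 to 1308 ± 22.0 (SD, n = 2). Des (desmin), dim in wildtype, rose by 1.59, and the neuronal filament gene Ina changed by -3.83. The neurofilament genes Nefl and Nefm, chosen after their values were seen, lay higher without passing. Nefl read 132 and 94.1 in wildtype, against 573 and 228 in SOCS3-null cells, a difference of 1.57 (limma adjusted p = 0.099 over genes). Nefm read 14.7 and 21.0 against 215 and 68.6, a difference of 2.05 (limma adjusted p = 0.0693 over genes). On both, the first SOCS3-null array was the higher. Vim (vimentin), the filament of mesenchymal cells, read 4982 and 5702 in wildtype, against 5522 and 3422 in SOCS3-null cells. The groups overlapped, and its difference of -0.29 did not pass (limma adjusted p = 0.487 over genes).

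**Figure D4:**
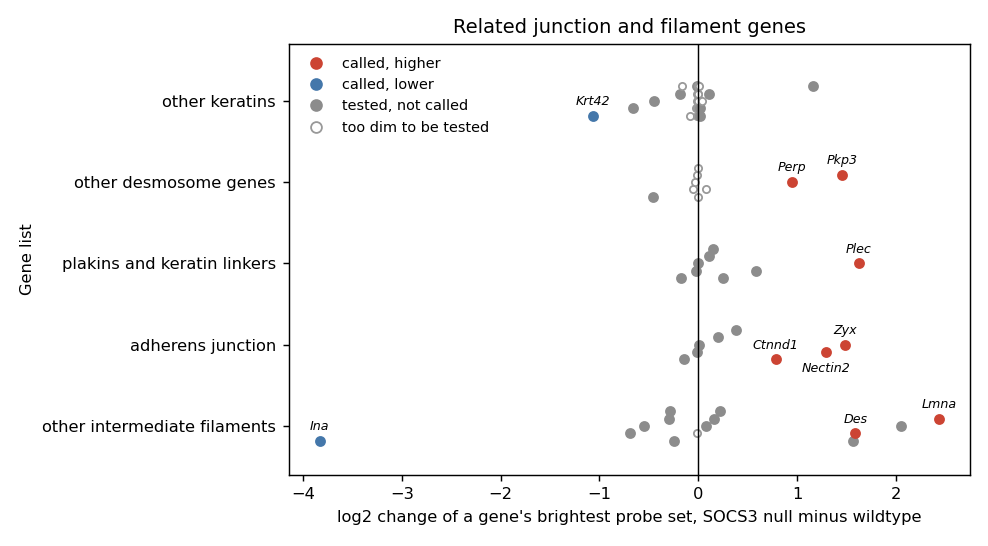
The log2 change (horizontal axis) of each gene of 5 related lists (vertical axis) by its brightest probe set; red and blue genes were called higher and lower, grey ones were not called and open circles were too dim to be tested. Most other keratins lie close to 0, while Pkp3, Perp, Plec, Zyx, Nectin2, Ctnnd1, Des and Lmna, all called, lie to the right and Krt42 and Ina to the left; the grey points at 2.05 and 1.57 in the lowest row are Nefm and Nefl.

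The genes whose pattern over the 4 arrays was most like that of Krt8 were found by Euclidean distance between log2 values centred on the wildtype mean. Among 12731 genes the nearest were Mid1, a ubiquitin ligase that binds microtubules, at 0.36, and Qsox1, a sulfhydryl oxidase of the secretory pathway, at 0.40. Bend5, Rasd1 and Krt18 followed at 0.42 each. Krt18 was thus number 5 in likeness to Krt8. Qsox1 read 35.6 and 43.2 in wildtype, against 356 and 557 in SOCS3-null cells, with the second SOCS3-null array again the higher. Krt19 was number 125, Krt7 number 284, Dsp number 644 and Dsg2 number 673, at distances of 1.45, 2.11, 2.82 and 2.86. Dsc2 and Jup were numbers 1712 and 2152, and Pkp2 was number 12527. With 2 groups of 2 arrays such a distance mostly orders genes by the size of their change.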

How the data were processed

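The values used are the deposited intensity values of 45101 probe sets on 4 arrays, processed by the authors; how they were summarised and normalized is not given in the sources used here. All values were above 0 and the array medians nearly equal, so they were not normalized again. With limma 3.58.1 in R 4.3.3, log2(intensity + 16) was fitted with genotype as the only term (lmFit, eBayes, Benjamini-Hochberg over all probe sets tested). The 64 control probe sets and those with a mean under the 40th percentile were left out. Gene-level values take the brightest probe set tested. Symbols came from the platform annotation, where 34945 probe sets had 1 symbol, 932 several and 9160 none; 34741 matched the RefSeq table of GRCm38.p6.

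The members and lists were chosen with earlier results of these data known. Named were all members, Socs3, up to 3 called genes of each list with the largest change, fixed genes (Vim, Cdh1, Ctnnb1, Plec, Gata4, Gata6, Sox17, Dab2, Pou5f1, Cdx2, Krt5, Krt14) and the 5 genes most like Krt8. The procedure was tested on simulated data. The number of arrays limits the precision. Alternatives were other pseudocounts, normalizations, filters, eBayes settings, a replicate block, gene-level rows and leaving out each array. Figures were drawn with matplotlib 3.10.9.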

Additional observations from a re-analysis of the deposited data

How the results depend on the processing

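No alternative turned the direction of any of the 21 member probe sets tested. The count of probe sets called, 4283 with all 4 arrays, was 1733 without the filter and 1993 with the replicate block, and limma called 0 with any 1 array left out, where 5715 to 8552 had an unadjusted p under 0.05. Members called higher, 10 in all, were 6 with a pseudocount of 64, 2 without the filter (Dsg2 1425619_s_at and Dsp 1427610_at), 6 with the replicate block (the Krt8, Krt18 and Krt19 probe sets and Dsg2 1425619_s_at) and, counted by gene, 4 by either the brightest or the mean of its probe sets; with 1 array left out they were 0. The single member called lower became 2, with Pkp2 1449799_s_at, under a pseudocount of 1, quantile normalization, median centring, the filter at the 60th percentile and eBayes with a trend or a robust trend. It became 0 with a pseudocount of 64, without the filter, with the replicate block and with 1 array left out. The labels do not say that replicate numbers pair the arrays; the deviations of same-numbered arrays correlated at -0.118 over probe sets, and a crossed pairing, added after seeing the data, called 3845 probe sets, with 9 members higher and 2 lower. Losing calls with 3 arrays follows in part from having fewer arrays; for the other settings the cause was not tested. Dim probe sets of Dsc2, Dsp, Dsg2 and Pkp2 lie near the array medians, so their changes depend on the pseudocount.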

Other observations

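Genes with the largest gap between the SOCS3-null arrays, chosen after the values were seen, included some that stood apart from wildtype on 1 SOCS3-null array alone. Xaf1, an apoptosis-associated factor, read 31.7 and 15.2 in wildtype, against 24.0 and 857 in SOCS3-null cells. Adi1, an enzyme of methionine salvage, read 331 and 322 in wildtype, against 22.9 and 342 in SOCS3-null cells. For Xaf1 the second SOCS3-null array and for Adi1 the first was the odd one. On these probe sets the gaps were 4.45 and 3.20 on the log2 scale, beside 1.87 for Krt7. Across all probe sets tested the correlation was 0.988 between the SOCS3-null arrays and 0.995 between the wildtype arrays, over probe sets that are not independent replicates.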
